A study of Danio rerio with 6 samples.

Results

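The midbrain-hindbrain boundary (MHB) transcription factors are a set of homeodomain and paired domain genes that place and maintain the constriction between midbrain and hindbrain. The set was defined by name, as *otx1a*, *otx2*, *gbx1*, *gbx2*, *pax2a*, *pax5*, *pax8*, *eng1b*, *eng2a* and *eng2b*, a rule that uses no measured value. Of these 10 genes, 9 are among the 13466 genes in the deposited table. *pax8* was not analysed here. RefSeq's annotation of GRCz12tu gives *otx1a* as *otx2a*, *otx2* as *otx2b*, and *eng1b*, *eng2a* and *eng2b* as *en1b*, *en2a* and *en2b*. The names of the deposited table are used here.

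RNA-seq was performed on zebrafish embryos at 18 hours post fertilization (hpf). There were 3 libraries from wildtype control embryos and 3 from *hoxb1b*-/- mutants, which were homozygous for the um197 allele. Each library came from pooled whole embryos without chorion and yolk, so an embryo's MHB was a small part of the tissue sequenced. The sources used here do not say if replicate libraries were made from different pools, and p-values measure only the spread between these libraries. The 6 libraries held 19139322 to 29146812 counts. Beyond counting noise, replicate libraries had an estimated coefficient of variation of 1.85%. *hoxb1b* itself had 70.6, 66.4 and 70.4 counts per 1000000 counts (CPM) in wildtype replicates 1 to 3, against 85.3, 84.2 and 83.8 CPM in mutant replicates 1 to 3. Its RNA was not lower in the mutants, so this count is no check of the genotype labels.

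As background, the MHB forms where *otx* expression in the forebrain and midbrain meets *gbx* expression in the anterior hindbrain, and these factors repress each other. *pax2a*, *wnt1* and *fgf8a* then come on near this interface, and the *eng* genes, *pax5* and *pax8* follow. Together they maintain the isthmic organizer, a source of Fgf and Wnt proteins that patterns the tectum and the cerebellum. *hoxb1b* is expressed more posteriorly, in the caudal hindbrain.

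Of the 9 MHB genes, 7 had more RNA in *hoxb1b* mutants and 1 had less, and every change was under 1.5-fold. *pax5* rose most, by 39.8%, followed by *eng2b* at 33.4% and *otx1a* at 29.1%. *gbx1* rose by 21.6% and *pax2a* by 20%, while *gbx2* and *otx2* rose by 12.1% and 9.1%. *eng1b* fell by 26.1%. *eng2a* did not pass the test. A gene was called when its adjusted p was under 0.05 in edgeR's quasi-likelihood test, with Benjamini-Hochberg adjustment over all 12471 genes tested. That test called 66.2% of all genes, 32.6% as higher and 33.6% as lower in the mutants, so a call is common in these libraries. With a change of more than 1.5-fold also required, 18.6% of all genes were called with edgeR and 16.9% with DESeq2's Wald test, and 0 of the MHB genes with either. DESeq2 alone, without a limit on fold, called 7 of the 9 MHB genes and 55.5% of all genes. The study's methods name a 2-fold change and no adjusted p. With both required here, 8.36% of all genes were called with edgeR and 8.05% with DESeq2, and again 0 of the MHB genes with either. Without adjustment, 8 MHB genes had p under 0.05 with each tool. So did at least 66.2% of all genes with edgeR and 55.5% with DESeq2, since adjustment never lowers a p. With an assumed coefficient of variation of 0.2 between embryo pools (edgeR's likelihood ratio test), 0 of the MHB genes and 12.7% of all genes were called, and 1 MHB gene had an unadjusted p under 0.05. The median log2 fold change (mutant over wildtype) of the 9 genes was 0.26, against -0.0034 over all genes tested.

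**Figure D1:**
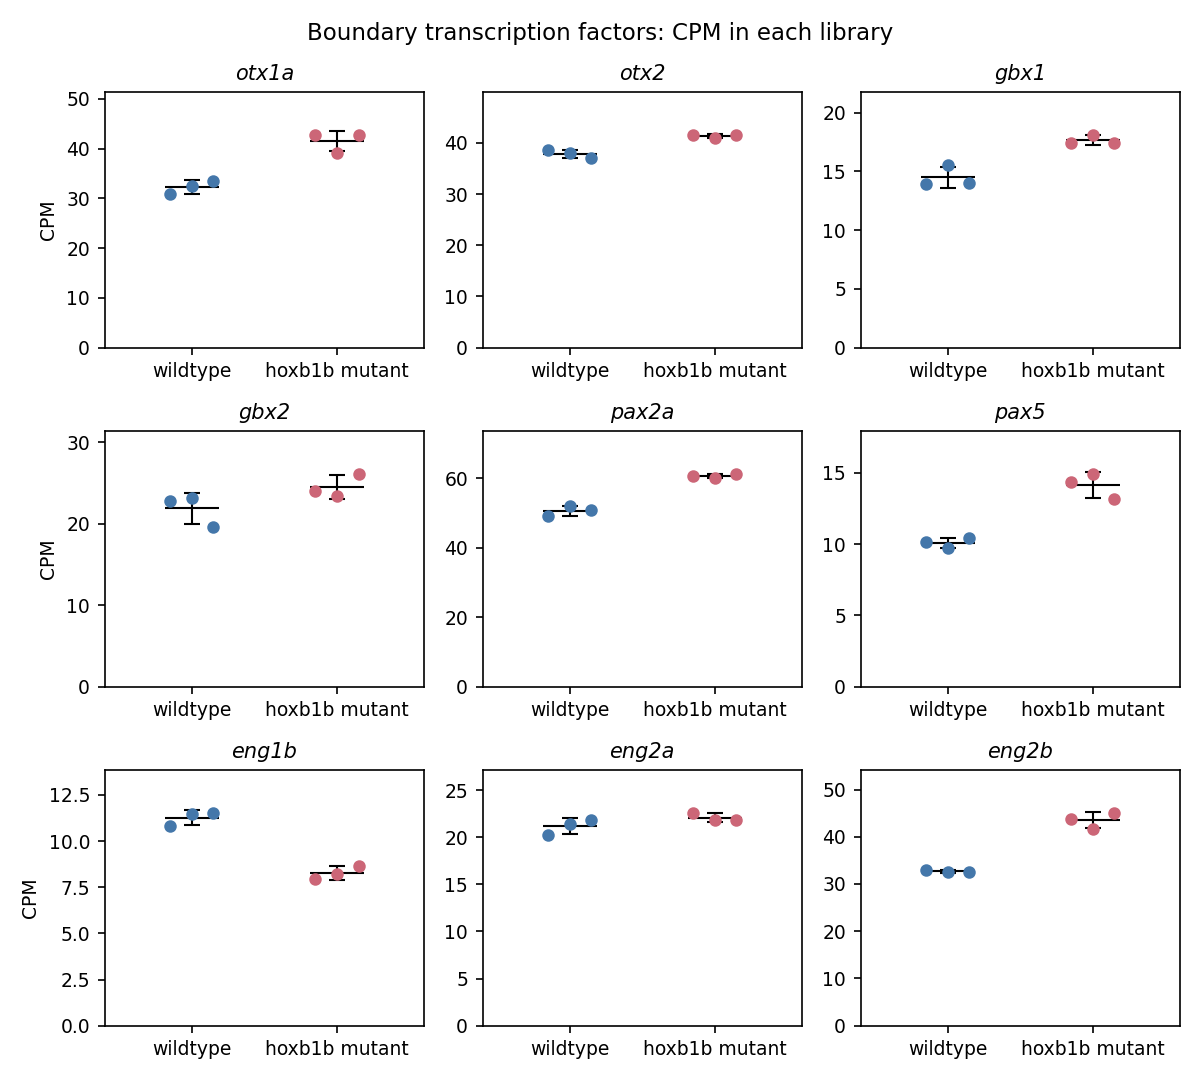
CPM (linear axis from 0) of each MHB gene in each of the 3 wildtype and 3 *hoxb1b* mutant libraries, shown as points, with the mean and SD of each genotype in black. The mutant libraries lie above the wildtype libraries for 7 genes and below them for *eng1b*, and the genotypes overlap for *eng2a*.

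The Otx genes encode homeodomain factors of the forebrain and midbrain, and they set the anterior side of the MHB. *otx1a* stood at 30.8, 32.5 and 33.5 CPM in wildtype replicates 1 to 3 but at 42.8, 39.2 and 42.7 CPM in mutant replicates 1 to 3. Every mutant library was above every wildtype library, with a gap of 17.4% of the wildtype mean between the closest libraries. Its log2 fold change was 0.37, with a standard error (SE) of 0.046 (edgeR adjusted p = 5.22e-08). *otx2* had 38.6, 37.95 and 37.1 CPM in wildtype and 41.6, 41.0 and 41.5 CPM in mutant libraries. These libraries were also apart, but by only 6.2% of the wildtype mean. The log2 fold change of *otx2* was 0.13 (SE 0.040, edgeR adjusted p = 0.00716), larger in size than that of only 29% of all tested genes. The ratio of *otx1a* to *otx2* counts, which is not affected by how libraries are scaled, was 0.797 to 0.905 in wildtype and 0.956 to 1.03 in mutant libraries. The rise of *otx1a* exceeded that of *otx2* by 0.24 on the log2 scale (SE 0.064). With 3 libraries against 3, an exact two-sided permutation test cannot give a p below 0.1, and this ratio reached 0.1 (0.14 after adjustment over the 7 ratios examined).

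The Gbx genes encode homeodomain factors that are expressed in the anterior hindbrain, the posterior side of the MHB. For *gbx1* the paper reports a wider domain at a later stage, the whole hindbrain except rhombomere r4. The *gbx1* values are therefore not those of the MHB alone. By in situ hybridization in *hoxb1b* mutants, the paper found that genes of r5 and r6, *gbx1* among them, were still expressed there. In r4, *gbx1* came back in *hoxb1a* mutants but not in *hoxb1b* mutants. *gbx1* rose from 14.0, 15.5 and 14.1 CPM in wildtype replicates 1 to 3 to 17.4, 18.1 and 17.5 CPM in mutant replicates 1 to 3. The genotypes were apart by 13.0% of the wildtype mean, with a log2 fold change of 0.28 (SE 0.063, edgeR adjusted p = 0.000262). *gbx2* had 22.8, 23.1 and 19.6 CPM in wildtype and 23.9, 23.3 and 26.1 CPM in mutant libraries. The closest libraries of the genotypes differed by only 0.9% of the wildtype mean, since wildtype replicate 3 was low and mutant replicate 3 was high. *gbx2* was the least stable of the called MHB genes. Its log2 fold change was 0.16 (SE 0.060, edgeR adjusted p = 0.0179), but 0.10 without wildtype replicate 3 (adjusted p = 0.146) and 0.11 without mutant replicate 3 (adjusted p = 0.17). DESeq2's Wald test gave an adjusted p of 0.0672. Leaving out any single library gave adjusted p-values between 0.0106 and 0.17.

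Because Otx and Gbx factors act against each other at the MHB, the ratio of *otx2* to *gbx2* was compared within libraries. It was 1.69, 1.64 and 1.89 in wildtype replicates 1 to 3, against 1.74, 1.75 and 1.59 in mutant replicates 1 to 3. The ranges overlap, and the log2 ratio differed by -0.038 (SE 0.076) between genotypes (exact two-sided permutation p = 0.7). A shift of the ratio was not detectable at this spread. For *gbx1* to *gbx2* the ranges overlapped as well, 0.612 to 0.715 in wildtype and 0.668 to 0.777 in mutant libraries (exact two-sided permutation p = 0.3).

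**Figure D2:**
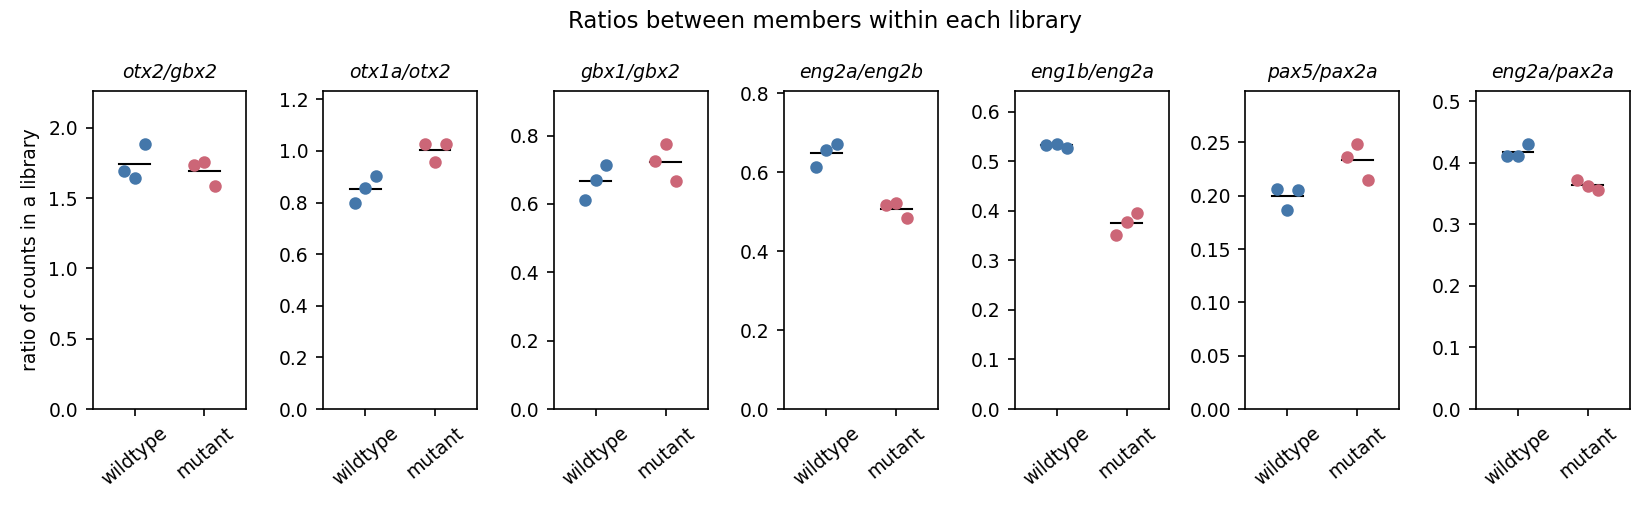
Ratio of the estimated counts of 2 MHB genes within each library (linear axes from 0), with 1 point for each of the 3 wildtype and 3 *hoxb1b* mutant libraries and a line at each mean. The genotypes overlap for *otx2*/*gbx2* and *gbx1*/*gbx2* and are apart for the other 5 ratios.

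Pax2, Pax5 and Pax8 are paired domain factors of one subfamily. *pax2a* is needed early for the isthmus and is also expressed in the optic stalk, the otic vesicle, the pronephros and interneurons, whereas *pax5* depends on *pax2a* at the MHB. *pax2a* stood at 49.2, 52.0 and 50.7 CPM in wildtype replicates 1 to 3 but at 60.8, 60.0 and 61.3 CPM in mutant replicates 1 to 3. The genotypes were apart by 15.9% of the wildtype mean, with a log2 fold change of 0.26 (SE 0.036, edgeR adjusted p = 2.3e-07). In *hoxb1b* mutants also blocked in retinoic acid synthesis, the paper saw *pax2* unaffected at the MHB by in situ hybridization. The whole-embryo *pax2a* values are not those of the MHB alone. *pax5* had 10.2, 9.70 and 10.4 CPM in wildtype and 14.4, 14.9 and 13.2 CPM in mutant libraries. The gap between the closest libraries was 27.3% of the wildtype mean, the widest of the 9 genes. Its log2 fold change of 0.48 (SE 0.073, edgeR adjusted p = 1.45e-06) was larger in size than that of 76.0% of all tested genes. The ratio of *pax5* to *pax2a* counts was 0.186 to 0.206 in wildtype and 0.215 to 0.249 in mutant libraries. The log2 ratio was higher by 0.23 in the mutants (SE 0.079, exact two-sided permutation p = 0.1).

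The Engrailed genes encode homeodomain repressors that act in the MHB downstream of Pax2 and Wnt1. They are also expressed in muscle pioneers, and *eng1b* in a class of inhibitory interneurons of the spinal cord and hindbrain. The paper also counts *eng1b* among the genes of rhombomere r4. By in situ hybridization it found these genes still expressed in *hoxb1b* mutants, in smaller domains because r4 is smaller. The 3 genes of this family did not move together. *eng2b* was even among the wildtype libraries, at 32.9, 32.5 and 32.5 CPM, and stood at 43.7, 41.7 and 45.1 CPM in mutant replicates 1 to 3. The gap was 26.9% of the wildtype mean and the log2 fold change 0.42 (SE 0.042, edgeR adjusted p = 1.17e-09). *eng2a* had 20.2, 21.4 and 21.8 CPM in wildtype and 22.6, 21.8 and 21.8 CPM in mutant libraries. The genotypes overlapped, with a log2 fold change of 0.06 (SE 0.054, 95% interval -0.05 to 0.17, edgeR adjusted p = 0.322). *eng1b* stood at 10.8, 11.5 and 11.5 CPM in wildtype replicates 1 to 3 but at 7.93, 8.23 and 8.64 CPM in mutant replicates 1 to 3. It was the only MHB gene that fell, by 0.44 on the log2 scale (SE 0.078, edgeR adjusted p = 1.67e-05), and every mutant library was below every wildtype library, by 19.1% of the wildtype mean.

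The unequal change within the Engrailed family can also be given as ratios within libraries, which use the same counts. The ratio of *eng1b* to *eng2a* counts was 0.534, 0.536 and 0.528 in wildtype replicates 1 to 3, against 0.351, 0.378 and 0.396 in mutant replicates 1 to 3. This is a difference of -0.51 on the log2 scale (SE 0.052). The ratio of *eng2a* to *eng2b* fell from between 0.614 and 0.672 to between 0.484 and 0.522, a log2 difference of -0.35 (SE 0.053). Relative to *pax2a*, *eng2a* was lower in the mutants as well, by a log2 difference of -0.20 (SE 0.029). Each of these 3 ratios had an exact two-sided permutation p of 0.1, the smallest possible, and 0.14 after adjustment.

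**Figure D3:**
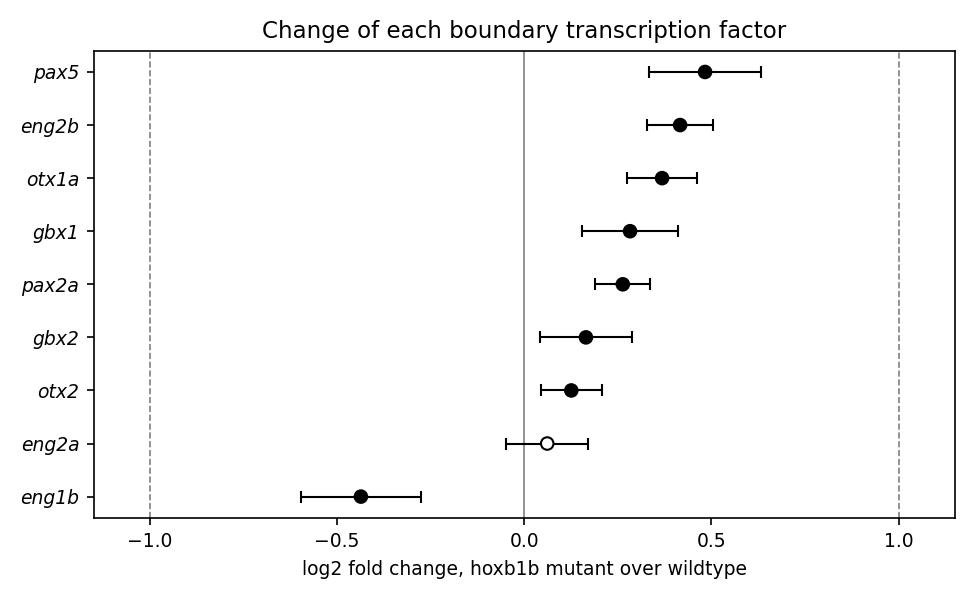
Log2 fold change (*hoxb1b* mutant over wildtype, x axis) of each MHB gene, with the 95% interval of the edgeR fit as bars. Filled points passed an adjusted p under 0.05, the open point (*eng2a*) did not, and dashed lines mark a 2-fold change, which no interval reaches.

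Ordered by log2 fold change, the genes run from *pax5* through *eng2b*, *otx1a*, *gbx1*, *pax2a*, *gbx2*, *otx2* and *eng2a* to *eng1b*. The first 8 form a series without a clear step between neighbours, but sorting itself makes neighbours close. Between neighbours the change differed by 0.023 to 0.097 on the log2 scale, with standard errors of 0.042 to 0.091, and the within-library ratio of each neighbouring pair overlapped between genotypes. The step from *eng2a* to *eng1b*, 0.51, was the exception. Among examined pairs further apart in this order, the *gbx1*/*gbx2* ratio overlapped between genotypes. The ratios *otx1a*/*otx2*, *pax5*/*pax2a*, *eng2a*/*eng2b* and *eng2a*/*pax2a* did not. All 9 genes were well covered. Their estimated counts lay between 153.93 and 1816 per library, for which counting alone gives a coefficient of variation of 2.6% to 7.1%. The observed coefficient of variation among replicates was 0.7% to 8.8%. The libraries of the genotypes did not overlap for 8 of the 9 genes, compared with 68.1% of all tested genes. The mutant libraries were above for 7 of them, as for 33.7% of all genes, and below for 1, as for 34.5%. Summed over the 9 genes, the mutant libraries held 268 to 278 CPM and the wildtype libraries 229 to 236 CPM. In whole embryos, a change in the number of cells that express a gene and a change in RNA per cell cannot be told apart. Nor can the mutation be told apart here from a difference in clutch or exact stage between the genotypes.

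Other genes of the same families were read beside them. *otx1b*, which RefSeq gives as *otx1*, rose from 56.3 ± 1.23 to 73.2 ± 0.813 CPM as mean ± SD of 3 libraries each, with a log2 fold change of 0.38 (SE 0.033, edgeR adjusted p = 6.44e-11), close to that of *otx1a*. *eng1a*, the paralog of *eng1b*, fell from 8.19 ± 0.476 to 5.33 ± 0.395 CPM as mean ± SD of 3 libraries each, giving a log2 fold change of -0.62 (SE 0.095, edgeR adjusted p = 1.78e-06). Thus both *eng1* genes were lower, while of the *eng2* genes *eng2b* was higher. *pax2b* had 5.50 ± 0.487 and 5.75 ± 0.503 CPM (SD, n = 3 each; edgeR adjusted p = 0.691). *crx*, an Otx-related gene of retina and pineal, fell from 1.13 to 0.644 CPM, and *otx5* did not pass the test. In this list 1 of 5 genes was higher and 2 were lower, where 32.6% and 33.6% of all genes were. Counts were estimated, and how reads common to paralogs were divided is not given in the sources used here. Fractional values, which such a division leaves, occurred in 1 library for *otx2*, *eng1b*, *eng2a* and *eng2b*, in 2 for *pax2a* and in 0 for the other MHB genes.

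Of 10 tested genes for signals of the isthmic organizer, 5 were higher (32.6% of all genes) and 0 were lower (33.6% of all genes) with edgeR. The median log2 fold change was 0.24. With an unadjusted p under 0.05, and with DESeq2, 0 were lower as well, since the genes with negative values, *fgf18a* and *wnt3a*, had adjusted p-values of 0.266 and 0.879 (edgeR). *fgf8a*, the main organizing signal, rose from 26.9 ± 0.588 to 54.2 ± 2.14 CPM (SD, n = 3 each; log2 fold change 1.01, SE 0.043, edgeR adjusted p = 2.77e-18). The paper also reported this rise, but saw no obvious change of *fgf8* in *hoxb1b* mutants by in situ hybridization. At the MHB it saw no effect on *fgf8* even where retinoic acid synthesis was blocked in the mutants as well. It describes *fgf8* in rhombomere r4 and the anterior hindbrain too, so whole-embryo *fgf8a* values are not those of the MHB alone. *fgf17* rose from 10.7 ± 0.585 to 22.5 ± 1.11 CPM (SD, n = 3 each; log2 fold change 1.07, SE 0.065, edgeR adjusted p = 1.19e-14). *fgf18b* rose from 0.878 to 1.59 CPM. The log2 fold changes of these 3 genes, 1.01, 1.07 and 0.86, lay above those of the 9 MHB genes. *wnt1*, which maintains the *eng* genes, had a smaller rise of 0.29 (SE 0.082, edgeR adjusted p = 0.00274), and *wnt8b* rose by 0.48. *wnt3*, *wnt10b* and *fgf8b* did not pass the test.

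Among 24 regulators and partners of the MHB genes, 14 were higher and 5 were lower, with a median log2 fold change of 0.20. Of all genes, 32.6% were called higher and 33.6% lower. In this list 8 genes rose by more than 1.5-fold, where 5.08% of all genes did. *her5* and *her11*, bHLH repressors that keep the boundary free of neurons, had log2 fold changes of 0.91 and 0.60. *her3*, a related repressor, had 0.92. *sp5a* and *sp5l*, zinc finger targets of Wnt and Fgf signalling, had 0.92 and 0.86. *irx1b* and *irx7*, homeodomain genes that take part in positioning the MHB, had 0.71 and 0.82, whereas *irx1a* had -0.17. *il17rd*, a membrane inhibitor of Fgf signalling, had 0.66, and *tle3a*, a Groucho corepressor, had 0.56. By contrast *lmx1ba* and *lmx1bb*, LIM homeodomain genes that maintain *wnt1*, were at -0.01 each and did not pass the test. Of the Pbx and Meis cofactor genes in this list, *pbx2* (-0.19), *pbx4* (-0.15) and *meis2a* (-0.33) fell and *meis1a* (0.23) rose. *meis2b*, listed with the forebrain and midbrain genes, rose too (0.21). Of 8 targets and feedback inhibitors of Fgf signalling, 7 were higher, with *etv4* (0.52), *etv5b* (0.44) and *spry1* (0.35) the highest, and *dusp2* was lower (-0.90). The paper counts *irx7*, *meis1a*, *spry1* and *dusp2* among the genes of rhombomere r4. Whole-embryo values of the genes in these lists are not those of the MHB alone.

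**Figure D4:**
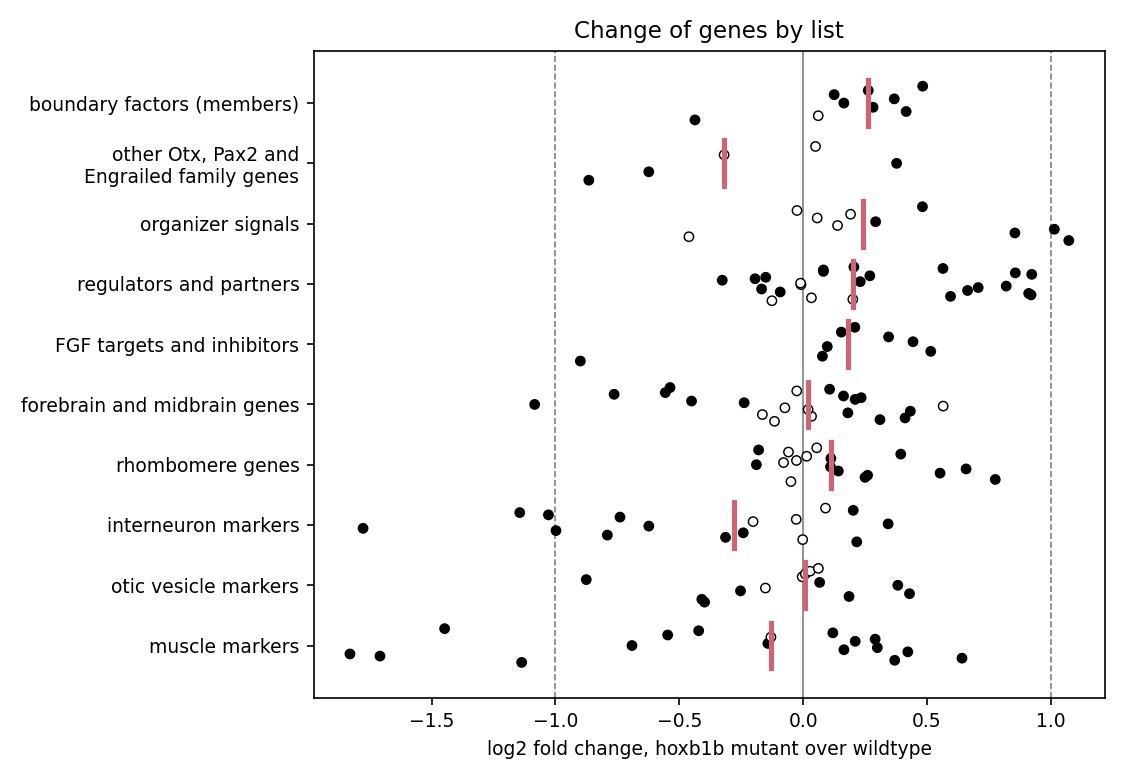
Log2 fold change (*hoxb1b* mutant over wildtype, x axis) of each tested gene of 10 lists, 1 point per gene, filled where the adjusted p from edgeR was under 0.05. Red bars are the list medians (0.26 for the MHB genes, 0.24 for organizer signals, -0.28 for interneuron markers) and dashed lines mark a 2-fold change.

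Neighbouring brain regions gave a mixed picture, to be read against the 32.6% of all genes called higher and the 33.6% called lower. Of 21 genes of the forebrain and midbrain, 8 were higher and 6 were lower, with a median log2 fold change of 0.02. *emx3* (0.43), *dmbx1a* (0.41) and *barhl2* (0.31) rose, and *lhx2a* (-1.08), *pax7a* (-0.76) and *pax7b* (-0.56) fell. Of 17 rhombomere genes, 9 were higher and 2 were lower, with a median of 0.11, led by *egr2b* (0.78), *hnf1ba* (0.66) and *fgf3* (0.55), while *hoxa3a* (-0.19) and *znf503* (-0.18) fell. To set the MHB genes against other brain-region genes in each library, their counts were divided by the summed counts of these 38 genes. This measure was chosen after the values were seen. The sum does not measure the amount of brain, since *hnf1ba* is also listed here as a pronephros marker. Highly expressed genes weigh most in it, such as *znf503* with a wildtype mean of 168 CPM. The sum itself was 1351 to 1383 CPM in wildtype and 1439 to 1451 CPM in mutant libraries. On this scale 6 of the 9 MHB genes had genotypes apart, near the share of all tested genes that were apart on it (67.9%). Each of the 6 had an exact two-sided permutation p of 0.1, the smallest possible, and 0.15 after adjustment over the 9 genes. *pax5* was higher by 0.41, *eng2b* by 0.33, *otx1a* by 0.28, *gbx1* by 0.20 and *pax2a* by 0.18 on the log2 scale, and *eng1b* was lower (-0.53). *otx2* (0.05), *gbx2* (0.08) and *eng2a* (-0.02) overlapped between genotypes.

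Several MHB genes are also expressed outside the brain, and markers of those tissues were read beside them. The share of genes called in these lists is to be read against the 66.2% called among all genes, 32.6% higher and 33.6% lower. Of 16 interneuron markers, 3 were higher and 9 were lower, with summed levels of 333 to 343 CPM in wildtype and 314 to 321 CPM in mutant libraries. The transmitter genes *gad1b* (-1.78), *slc6a5* (-1.14) and *slc32a1* (-1.03), which mark GABA and glycine neurons, fell most. The fall was not confined to transmitter genes, since *evx2* (-0.998), *elavl4* (-0.79), *elavl3* (-0.31) and *evx1* (-0.24) were also lower. Whether it was particular to GABA and glycine neurons was not tested. *gata3* (0.34), *dbx1a* (0.22) and *tal1* (0.20) rose most. Of 17 muscle genes, listed for muscle pioneers and slow muscle together with Hedgehog pathway genes that induce them, 8 were higher and 8 were lower. Their sum was 4770 to 4830 CPM in wildtype and 2790 to 2850 CPM in mutant libraries. Highly expressed genes weigh most in this sum, such as *smyhc1* and *myhz2* (wildtype means 1822 and 1032 CPM). It is therefore not a measure of muscle pioneers. *mylz3* (-1.83) and *myhz2* (-1.71), which are fast muscle genes, fell most, with *tnnc1b* (-1.45), and *ihhb* (0.64), *myod1* (0.42) and *gli1* (0.37) rose most. Of these, *tnnc1b* is a slow muscle gene by its full name in the paper's supplement. Of the other slow muscle genes, *prox1a* (-0.69), *smyhc1* (-0.55) and *smyhc3* (-0.42) fell. *smyhc2* (0.12) rose, as did *prdm1a* (0.30), which directs slow muscle fate. No marker of either list was at 0 in a genotype. The part of these cells, or of rhombomere r4, in the lower *eng1b* level or in the other changes was not tested.

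The remaining tissues that express *pax2a* were also read, against the 32.6% of all genes called higher and the 33.6% called lower. Of 13 otic vesicle markers, 4 were higher, led by *dlx4b* (0.43), *foxi1* (0.38) and *dlx3b* (0.19), and 4 were lower, led by *otomp* (-0.88), *atoh1b* (-0.41) and *atoh1a* (-0.40). Their sum was 609 to 623 CPM in wildtype and 608 to 628 CPM in mutant libraries. Of 14 markers of pronephros and thyroid, 4 were higher and 5 were lower, and the sum was 557 to 565 and 468 to 477 CPM. This sum is weighted to highly expressed genes, such as *atp1a1a.4*, with means of 179 CPM in wildtype and 106 CPM in mutant libraries. It does not measure the amount of either tissue. *wt1a* (0.58) and *hnf1bb* (0.53) rose beside *hnf1ba*, and *slc20a1a* (-1.26) and *atp1a1a.4* (-0.76), transporters of the pronephric tubule, fell. *tshr*, the thyrotropin receptor gene, had 16 to 26 counts per wildtype library but only 0 to 1 per mutant library. That is at least 6.96-fold lower against a floor of 3 counts per library. The thyroid markers *nkx2.4b* (0.11) and *hhex* (0.17) of this list did not fall. They did not pass the test (edgeR adjusted p = 0.251 and 0.175). Of 9 markers of optic stalk and retina, 1 was higher, *rx3* (0.47), and 3 were lower, among them *vax1* (-0.21) and *rx1* (-0.12), with sums of 196 to 205 and 175 to 188 CPM. Their part in the *pax2a* level was not tested.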

How the data were processed

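For each library the deposited table gives the authors' estimated counts per gene, without normalization. Their processing notes name FastQC, RSEM 1.2.28, DESeq2 and the builds GRCz10 and danRer7, without roles. The table also holds the authors' own comparison (adjusted p, log2 fold change and fold change), which was not used. Genotypes and replicate numbers came from the sample titles, and columns were matched through the sample descriptions. After rounding, these counts were fitted with edgeR 4.0.16 under R 4.3.3. filterByExpr kept 12471 genes, libraries were scaled by TMM, and genotype was the only factor of the quasi-likelihood fit. CPM are counts divided by the scaled library size, times 1000000. A standard error is the log2 fold change divided by the square root of F, and intervals are at 95%. Shared spread and total counts (19139322 to 29146812) limit the precision. Ratios were tested by exact permutation with Benjamini-Hochberg adjustment. The fit was tested on simulated data. The named genes are all listed MHB genes and, of each list, up to 3 called genes with the largest rise and fall, and other list genes were named after their values were seen. Members and lists were chosen with earlier results of these data known, and lists carry no test of their own. No sequences or coordinates are given, and 1 gene of the optic list is not reported here by name. Alternatives were other scalings, DESeq2 1.42.0, other filters, unrounded counts, a replicate block, an assumed coefficient of variation of 0.2 between pools, and leaving out each library. Python packages were pandas 2.3.3, numpy 2.4.6 and matplotlib 3.10.9.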

Additional observations from a re-analysis of the deposited data

How the results depend on the processing

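The directions of the 9 MHB genes held under all 15 alternatives. Other scalings (DESeq2's size factors, upper quartile, total count), no filter, a minimum of 10 counts per library and unrounded counts were tried. Under each, 8 MHB genes were called, 7 higher and 1 lower, beside 7908 to 8378 of all genes tested. The median log2 fold change was 0.309 with total count scaling, where the median of all genes was 0.0421. With an assumed coefficient of variation of 0.2 between pools (edgeR's likelihood ratio test), 0 were called, 0 higher and 0 lower, with a lowest adjusted p of 0.221 and 1 gene at an unadjusted p under 0.05. Under that assumption 1590 of all genes (12.7%) were called, and each had changed by over 1.5-fold. DESeq2's Wald test called 7 MHB genes and 6922 of all genes. The median log2 fold change of the MHB genes was 0.241 to 0.285 when 1 library was left out. Leaving out 1 library gave 7 to 8 called MHB genes, 6 to 7 higher and 1 lower, beside 7635 to 7882 of all genes. Only *gbx2* lost its call there. The log2 difference of the *otx2* to *gbx2* ratio then ranged from -0.08 to 0.021, positive without wildtype replicate 3 (0.021) and without mutant replicate 3 (0.007). Relative to brain-region genes, *eng2a* turned to -0.019. No pairing of libraries between the genotypes is given in the sources used here. Libraries with the same number in their titles had deviations that correlated at 0.076, 0.016 and -0.001. Those with different numbers correlated at -0.062 to 0.05. With 3 libraries per genotype, such values cannot exclude a pairing. With a replicate block, 8 MHB genes were called, 7 higher and 1 lower, and 8155 of all genes against 8254. Among list counts, 22 moved by over 1.5 times, 20 of them with the assumed coefficient of variation. The others were the lower genes of optic stalk and retina, 1 with DESeq2 and 5 without wildtype replicate 1, against 3.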
